A study of Xenopus laevis with 111 samples.

Results

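The genes described here are 11 gene models measured in the spinal cord. Their mRNA level was lower 1 to 2 h after a sham operation than at 0 h. On a log2 scale it differed little between transected and sham animals at 0.5 to 2 h and at 16 to 21 h. The difference at the hours between was not used to choose them. The members were chosen by their measured levels. For each gene, counts were scaled to counts per 1000000 counts of the library (CPM) and log2(CPM + 1) was averaged. The mean of the sham libraries at 1 to 2 h minus the mean at 0 h had to be -0.3 or lower in each of series S1, S2 and S3, and -0.6 or lower on average over the 3 series. The mean difference of transected minus sham libraries of the same series and hour could not exceed 0.3 in size at 0.5 to 2 h, or 0.6 at 16 to 21 h. Of the 45099 gene models in the tables, 11 met the rule (0.0244%), and 20 met it with the signs turned. The sham criteria alone were met by 45 genes. In 33 of these the transected libraries at 0.5 to 2 h lay more than 0.3 above sham, in 0 more than 0.3 below, and 1 of the other 12 went past the limit at 16 to 21 h.

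The animals were *Xenopus laevis* tadpoles at or near NF stage 50, when the spinal cord can regenerate. The paper names stage 50 where transected and sham animals of the time series were selected. For its experiments in general it gives a range of stages around 50. Each library was made from poly(A)+ RNA of a pool of caudal spinal cord pieces. Pools held 10 cords in S1 and S2, 12 in S3 to S8 and 15 in the Torin1 experiment. Transected animals (36 libraries, 0.5 to 21 h, S1 to S6) were anaesthetised with MS222, opened through dorsal skin and muscle, and had the cord cut. Sham animals (36 libraries from the same batches, at the same hours) had the anaesthesia and the incision but an uncut cord. The 0 h libraries (8, with 2 in S1, 2 in S2 and a single one in each later series to S6) were the starting point of both conditions. Their labels call them uninjured too, so the 0 h level is that of cords without surgery. In this text, uninjured animals are those of S7 and S8 (25 libraries), which had no surgery at any hour from 0 to 21 h. In a separate experiment, transected tadpoles were kept in 1 µM Torin1 or in DMSO over the first 24 h, with 1 library for each at 24, 48 and 96 h. The labels name no genotype. Hours of a series came from 1 batch of animals, so p-values measure the spread between libraries and not between batches. The paper states that S1 and S2 used animals of 1 fertilization, and that S7 and S8 came from 1 batch. S1 and S2 are therefore not independent batches, and neither are S7 and S8.

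A sham operation opens skin and muscle over the cord. A transcript that differs alike from 0 h in sham and transected animals does so with what both share. These include anaesthesia, incision, handling, the bath with antibiotics after surgery, the hours since 0 h, and the same 0 h libraries. A high 0 h library therefore lowers both alike. The hours without surgery were sampled only in other batches, the uninjured animals. Anaesthesia, incision, handling and the bath cannot be told apart in these libraries. *X. laevis* carries many genes as a pair of similar copies, called homeologs, one from each of its ancestral species, and short reads cannot always be assigned to 1 copy. In pooled tissue, fewer cells of a type and less RNA per cell cannot be told apart either.

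The identifiers of the gene models could not be matched to gene symbols, so the products of the 11 genes are not described, and markers of cord, muscle, skin or blood cells could not be examined. The genes are called A to K, from the lowest to the highest mean difference of sham from 0 h. C is Xelaev18031571m.g and J is Xelaev18010876m.g. These are the members with the lowest mean difference among those with at least 5 CPM over the 8 libraries of 0 h.

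The library totals of the time series were 9.96 to 76.6 M expected counts. They were 11.8 to 13.9 M in the 0 h libraries of S1 to S3 and 18.2 to 24.2 M in those of S4 to S6. A single 0 h library of S1, number 3, stood far above the others in several members. In S5 the members were lower on average in the libraries from 12 h on than in the earlier ones. The mean log2(CPM + 1) of the members was 1.24, 1.11 and 1.13 at 12, 13 and 14 h in transected cords of S5, where it was 1.62 and 1.50 at 10 and 11 h, and 1.32, 1.14 and 1.18 in sham cords, where it was 1.60 and 1.73. At 15 h in S5 it was 1.31 in transected and 1.51 in sham cords. In S4 it also fell between 11 and 12 h, from 1.95 to 1.19 in sham cords and from 1.389 to 1.315 in transected cords. The comparisons with 0 h were repeated without the later libraries of S5. These were the libraries from 13 h on and the transected library of 12 h, while the sham library of 12 h was kept.

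The values that chose the members are given first, without a test. The mean difference of sham at 1 to 2 h from 0 h was -1.01 in A, -0.95 in B, -0.87 in C, and between -0.76 and -0.60 in the other 8. Just inside the limit lay genes at -0.62, -0.62 and -0.60, and just outside it genes at -0.58, -0.58 and -0.56, so the limit fell in a run of closely spaced values. The differences of the 11 genes ranged between -1.36 and -0.43 in S1, between -0.84 and -0.34 in S2 and between -1.51 and -0.34 in S3. The mean difference of transected from sham at 0.5 to 2 h was between -0.23 and 0.30, above 0 in 8 members and below 0 in 3. At 16 to 21 h it was between -0.16 and 0.28. B, D, E, F and I then summed to 0.495 to 1.24 CPM in transected and 0.867 to 1.97 CPM in sham cords. Levels this low leave little room for a difference of 0.6 on the log2(CPM + 1) scale. At 0.5 to 2 h the single pairs varied widely, with an SD of 0.35 to 1.02 over the 10 pairs. The limit of 0.3 applied to the mean of the 10 pairs and not to a single pair.

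C was the most abundant member at 0 h in CPM. In transected cords at 1, 1.5 and 2 h it measured 5.27, 2.27 and 2.11 CPM in S1 and 3.92, 2.41 and 1.03 CPM in S2, and in S3 at 1 and 2 h it measured 11.0 and 3.60 CPM. In sham cords at the same hours C measured 6.51, 2.41 and 4.09 CPM in S1, 4.30, 3.00 and 3.50 CPM in S2, and 9.20 and 7.74 CPM in S3. At 0 h it measured 14.8 and 8.37 CPM in S1, 5.20 and 7.98 CPM in S2 and 13.8 CPM in S3. In each series every transected and every sham library lay below every 0 h library, but over the 3 series together the ranges overlapped. C averaged 3.95 ± 3.13 CPM in transected and 5.09 ± 2.44 CPM in sham cords (SD, n = 8 each), against 10.0 ± 4.11 CPM at 0 h (SD, n = 5).

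J was lower in sham cords with less spread. In transected cords at 1, 1.5 and 2 h it measured 3.52, 3.16 and 4.95 CPM in S1 and 4.64, 6.09 and 6.94 CPM in S2, and in S3 at 1 and 2 h 9.02 and 8.67 CPM. In sham cords J measured 3.82, 3.34 and 3.34 CPM in S1, 4.92, 2.95 and 3.74 CPM in S2, and 6.78 and 8.27 CPM in S3. The 0 h libraries measured 5.26 and 4.87 CPM in S1, 6.55 and 7.04 CPM in S2 and 13.0 CPM in S3. In S1 and S2 transected libraries reached into the 0 h range, which the sham libraries did not. J averaged 5.87 ± 2.21 CPM in transected and 4.65 ± 1.91 CPM in sham cords (SD, n = 8 each), against 7.34 ± 3.28 CPM at 0 h (SD, n = 5).

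A shows how the level differed between S1, S2 and S3. In sham cords at 1 to 2 h it was 1.35, 0.602 and 0.622 CPM in S1, 5.30, 1.22 and 2.84 CPM in S2, and 4.24 and 2.13 CPM in S3, against 2.88 and 1.44 CPM at 0 h in S1, 5.02 and 5.92 CPM in S2 and 10.6 CPM in S3. Its largest difference, -1.51 in S3, therefore rests on a single 0 h library.

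B had the widest spread at 0 h. In sham cords at 1, 1.5 and 2 h it was at 2.14, 1.58 and 4.61 CPM in S1 and 0.695, 0.795 and 1.05 CPM in S2, and at 1 and 2 h in S3 at 1.22 and 2.89 CPM. At 0 h it was at 2.83 and 21.0 CPM in S1, 2.17 and 2.42 CPM in S2 and 3.62 CPM in S3. Without the library at 21.0 CPM, B in S1 would be compared with 2.83 CPM alone, which lies inside the sham range.

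**Figure D1:**
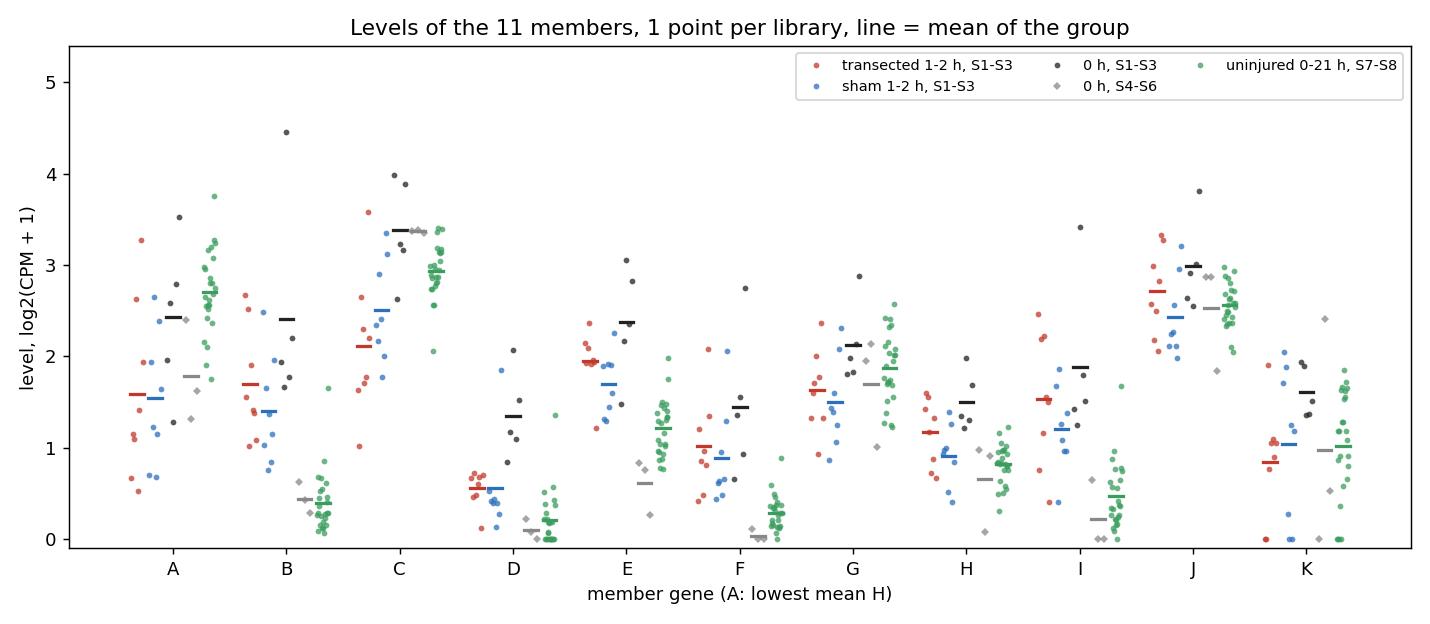
Level of each of the 11 members as log2(CPM + 1), 1 point per library, with a line at the mean of each group: transected and sham at 1 to 2 h in S1 to S3, 0 h in S1 to S3, 0 h in S4 to S6, and uninjured. The 0 h points of S1 to S3 reach 4.46 in B and 3.41 in I, and in B, D, E, F, H and I every 0 h point of S4 to S6 lies below every 0 h point of S1 to S3, as it does for 1.81% of all genes.

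All sham libraries at 1 to 2 h lay below all 0 h libraries in 6 members in S1, in 6 in S2 and in 10 in S3. Among all genes with a count the same held for 7.51%, 14.7% and 25.5%. Over the 3 series pooled it held for 0 of the 11 members and 0.0186% of all genes. The rule used these libraries, so nothing is read from these counts. The pairs of 0 h libraries show how far the level can differ with no time elapsed. In S1 they differed by 0.02 to 2.52 on the log2 scale (median 0.76), as much as the median sham difference of -0.72 in that series. In S2 they differed by 0.08 to 0.56 (median 0.19), against a median sham difference of -0.64.

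Membership was therefore recomputed without single 0 h libraries, a choice made after the data were seen. Without library 3 of S1 the rule gave 6 genes, of which 5 were members (A, C, G, J and K), the median difference in S1 was -0.48, and E and I lay above 0 in S1. Without library 1 of S1 it gave 20 genes, 10 of them members. Leaving out either 0 h library of S2 gave 12 or 11 genes, with 9 members each time. S3 has a single library of 0 h, which could not be left out. The scale mattered as well. TMM-scaled CPM gave 8 genes and DESeq2 size factors 9, all of them members, while the deposited TPM gave 46 genes with 8 members. A pseudocount of 5 CPM in place of 1 gave 1 gene, which was not a member.

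The hours of S1 and S2 were set against the same 0 h libraries that chose the members, library 3 of S1 included, so these values are a description. The median member in transected cords differed from 0 h by -0.31 at 0.5 h, -0.30 at 1 h, -0.59 at 1.5 h and -0.36 at 2 h. In sham cords the medians were -0.46, -0.56, -0.94 and -0.70 at the same hours. At 0.5 h the difference was -0.3 or lower in 6 of 11 members in either condition, and above 0 in 1 member in transected and 3 in sham cords, where A was at 0.06, G at 0.01 and K at 0.04. The medians of transected cords at 1 to 2 h were -0.50, -0.36 and -0.97 in S1, S2 and S3, values that the rule nearly fixed. S3 followed the animals to 6 h. The medians of 3 to 6 h against its single 0 h library were -0.93 in transected and -0.94 in sham cords, but that library was used by the rule and had the highest mean of the members of all libraries, 2.56. Against the 1 to 2 h libraries of S3, the 3 to 6 h libraries were lower in 4 and higher in 7 members in transected cords (median 0.04), and lower in 7 and higher in 4 in sham cords (median -0.33).

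The 0 h level itself was not the same in all series. The mean log2(CPM + 1) of the 11 members was 1.30 to 1.98 in transected libraries at 1 to 2 h and 1.05 to 1.99 in sham libraries. At 0 h it was 1.82 to 2.56 in the 5 libraries of S1 to S3, and 0.89 to 1.28 in the 3 of S4 to S6. The 25 uninjured libraries lay between 0.93 and 1.83. By this mean the transected and sham levels at 1 to 2 h lay within or above those of unoperated animals of other batches. This did not hold for every member: in S1 and S2 C measured 1.03 to 2.41 CPM in transected cords at 1.5 and 2 h, below the uninjured minimum of 3.17 CPM, and the sum of A, C, G and J reached below the uninjured range. In 6 members (B, D, E, F, H and I) the highest 0 h value of S4 to S6 was below the lowest 0 h value of S1 to S3, as it was for 1.81% of all genes with a count. In 10 of 11 members, all but A, the uninjured mean was below the 0 h mean of S1 to S3, as it was for 41.0% of all genes. The rule had used the 0 h libraries of S1 to S3, which favours high values there. C measured 6.81 ± 1.50 CPM in uninjured cords (lowest 3.17, median 6.70, highest 9.60; SD, n = 25). J measured 4.97 ± 0.97 CPM (lowest 3.14, median 4.92, highest 6.90; SD, n = 25). The 0 h libraries of S1 to S3 had smaller totals than those of S4 to S6, and S1 to S3 came from other batches of animals; the part of either in this gap was not tested.

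**Figure D2:**
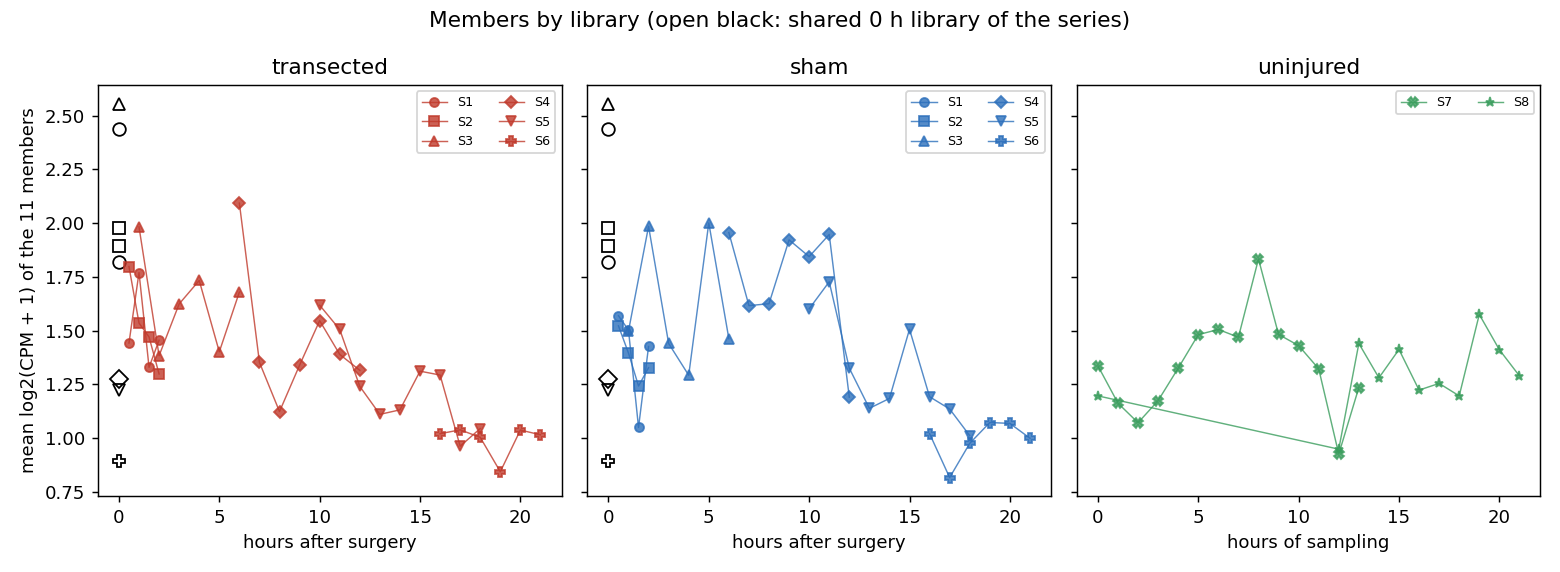
Mean log2(CPM + 1) of the 11 members in each library against hours, for transected, sham and uninjured animals, with 1 symbol per series and open black symbols for the shared 0 h libraries. The 0 h libraries of S1 to S3 stand at 1.82 to 2.56 and those of S4 to S6 at 0.89 to 1.28.

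The hours of 1 to 2 h were sampled after surgery only in S1 to S3, so the contrast of the rule could not be tested again. Later hours could be compared with 0 h in libraries the rule had not used for such a contrast, those of S4 to S6 with the 0 h library of each series (edgeR quasi-likelihood test over 32328 genes, series as a block, adjusted p under 0.05). All 11 members were among the genes kept. The 0 h means of B, D, E, F and I in S4 to S6 were 0.0275 to 0.56 CPM, which left these 5 members little room to be called lower. The transected libraries of S4 to S6 at 16 to 21 h, and the sham ones, had entered the rule through their difference from each other.

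In transected cords, 0 members were called lower and 1 was called higher at 6 to 10 h, where 2.82% of all genes were called lower and 4.85% higher. The member called was J, with a log2 difference of 0.85 (SE 0.27, edgeR adjusted p = 0.0429). J measured 13.4 CPM at 10 h in S5 and 7.38 to 11.0 CPM at 6 to 10 h in S4, against 6.34, 6.31 and 2.59 CPM at 0 h in S4, S5 and S6. The call was lost with DESeq2 size factors (0.84, edgeR adjusted p = 0.0501) and without the filter on low counts (0.82, adjusted p = 0.0609), with nearly the same difference. It was also lost when S4, S5 or S6 was left out, with differences of 1.32, 0.56 and 0.70 (edgeR adjusted p = 0.139, 0.44 and 0.238). The median of the 11 members at 6 to 10 h was 0.85. At 11 to 15 h, 0 members were called in either direction (5.18% of all genes lower, 7.3% higher), 0 had an unadjusted p under 0.05 by edgeR, DESeq2 called 0, and the median was 0.00. At 16 to 21 h, 0 members were called by edgeR (15.3% of all genes lower, 13.6% higher). There 1 had an unadjusted p under 0.05, namely C at -0.36, DESeq2 called B lower (adjusted p = 0.0493), and the median was -0.36.

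In sham cords the members were not called lower in any window, though B, D, E, F and I had little room to fall from their 0 h level. At 6 to 10 h all 11 differences were above 0, with a median of 1.20, and edgeR called 0 members and 0.0% of all genes in either direction. Unadjusted p was under 0.05 for 5 members, all higher, and DESeq2 called 0. At 11 to 15 h the median was 0.36, with 9 members above 0 and 2 below, and it was 0.86 without S4 and 0.92 without S5. Again edgeR called 0 members and 0.0% of all genes, 4 members had an unadjusted p under 0.05, all higher, and DESeq2 called 0. At 16 to 21 h, where 4.45% of all genes were called lower and 0.937% higher, edgeR called 0 members, 1 had an unadjusted p under 0.05 (E, higher), DESeq2 called 0, and the median was -0.21. This last median turned to 0.40 without the later libraries of S5, and the transected median of the same window turned to 0.35.

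The 2 genes printed by identifier are given by window. In transected cords of S4 to S6, C differed from 0 h by -0.12 in the window of 6 to 10 h, by 0.00 in that of 11 to 15 h and by -0.36 in that of 16 to 21 h. In sham cords C differed by 0.21, -0.01 and -0.24 in these windows (SE 0.17 to 0.18), and J by 0.44, 0.08 and -0.34 (SE 0.26 to 0.27). None of these passed the threshold. Some large fitted differences rest on almost no counts at 0 h: F, at 4.72 in sham cords at 6 to 10 h, had 2, 0 and 0 counts in the 0 h libraries of S4, S5 and S6. This does not hold for G, with a 0 h mean of 2.42 CPM in S4 to S6. At 6 to 10 h G differed by 1.20 in sham cords (SE 0.37, edgeR adjusted p = 0.292). In transected cords it differed by 1.09 (SE 0.37, edgeR adjusted p = 0.0591), and DESeq2 called it higher (adjusted p = 0.0472).

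Transected and sham cords were compared pair by pair in 3 windows that the rule had not used (edgeR, pair of series and hour as a block). At 3 to 6 h, 1 member was called lower and 0 higher, among 1.37% and 2.99% of all genes. It was C, at -0.60 (SE 0.17, edgeR adjusted p = 0.0361), lower in 5 of 5 pairs. C measured 6.25, 6.46, 7.20 and 6.62 CPM in transected cords at 3, 4, 5 and 6 h in S3 and 8.64 CPM at 6 h in S4, against 7.04, 9.59, 13.0, 11.8 and 13.6 CPM in sham cords. The call was lost without S3 (edgeR adjusted p = 0.627), without S4 (0.131), without S6, which has no pair in this window (0.0637), and without the pair block (0.592), although the difference stayed between -0.70 and -0.57. The median of the members in this window was 0.31.

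At 7 to 10 h, 3 members were called lower and 0 higher, among 2.1% and 3.92% of all genes. B differed by -2.82 (SE 0.50, edgeR adjusted p = 0.000139), F by -2.14 (SE 0.58, adjusted p = 0.0166) and I by -2.66 (SE 0.69, adjusted p = 0.0107), each lower in CPM in 5 of 5 pairs. In the pair of S5, however, F had 3 counts in either library. B measured 0.241, 0.238, 0.425 and 1.12 CPM in transected cords at 7, 8, 9 and 10 h in S4 and 0.00 CPM at 10 h in S5. In sham cords it measured 2.25, 1.42, 3.11 and 5.72 CPM at these hours in S4 and 0.772 CPM in S5. In S4 no transected library reached the lowest sham library.

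F measured 0.220, 0.119, 0.590 and 0.532 CPM in transected cords at these hours in S4 and 0.169 CPM in S5, against 1.32, 0.476, 2.40 and 3.36 CPM in sham cords in S4 and 0.174 CPM in S5. I measured 0.247, 0.130, 0.161 and 0.338 CPM in transected cords in S4 and 0.00 CPM in S5, against 0.622, 0.715, 1.54 and 2.29 CPM in sham cords in S4 and 0.179 CPM in S5. Without S4, which leaves 1 pair, B differed by -6.9, F by -0.06 and I by -4.8. In that pair B and I were at 0.00 CPM in the transected library, so the size of their differences is poorly determined. With 1 pair the window has no replicate, and the calls could not be checked without S4. The median member differed by -0.45, and by -0.96 without S5. At 0 h in S4, B was at 0.536, F at 0.0825 and I at 0.57 CPM. Against 0 h in S4 to S6, B, F and I differed by 0.98, 3.53 and 0.73 in transected cords at 6 to 10 h. In sham cords they differed by 2.00, 4.72 and 1.82, and none of these 6 values passed the threshold. Lower in transected cords therefore means lower than sham, and not lower than 0 h.

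The same 3 members were called lower at 11 to 15 h, and 0 were called higher, where 11.4% of all genes were called lower and 11.5% higher. B differed by -2.70 (SE 0.52, edgeR adjusted p = 0.000114), F by -1.56 (SE 0.57, adjusted p = 0.043) and I by -2.73 (SE 0.74, adjusted p = 0.00538). In CPM, B was lower in 6 of 7 pairs, F in 5 with 1 equal, and I in 5. In the 12 h pair of S5, counted as lower, F had 3 counts in either library. B measured 0.938 and 0.162 CPM in transected cords at 11 and 12 h in S4, and 0.202, 0.173, 0.0592, 0.00 and 0.124 CPM at 11, 12, 13, 14 and 15 h in S5. In sham cords it measured 4.68 and 0.646 CPM in S4, and 1.90, 1.06, 0.0554, 0.121 and 1.16 CPM in S5. Against 0 h in S4 to S6, B, F and I differed by -0.655, 2.91 and -0.885 in transected cords at 11 to 15 h. The sham differences were 2.06, 4.78 and 2.15, and none of these passed the threshold. Without S4 the 3 calls stood. Without S5, which leaves 2 pairs, 0 members were called, with differences of -2.30 in B, -0.36 in F and -1.99 in I (edgeR adjusted p = 0.232, 0.932 and 0.557). F also missed the threshold narrowly without S1, S2 or S6 (edgeR adjusted p = 0.0509, 0.0504 and 0.0583). Without the pair block 2 members were called in this window and 1 at 7 to 10 h. At 3 to 6 h B, F and I were each higher in transected cords in 4 of 5 pairs, with differences of 0.56, 0.84 and 0.49 that did not pass (edgeR adjusted p = 0.589, 0.405 and 0.741). The change between windows was not tested.

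**Figure D3:**
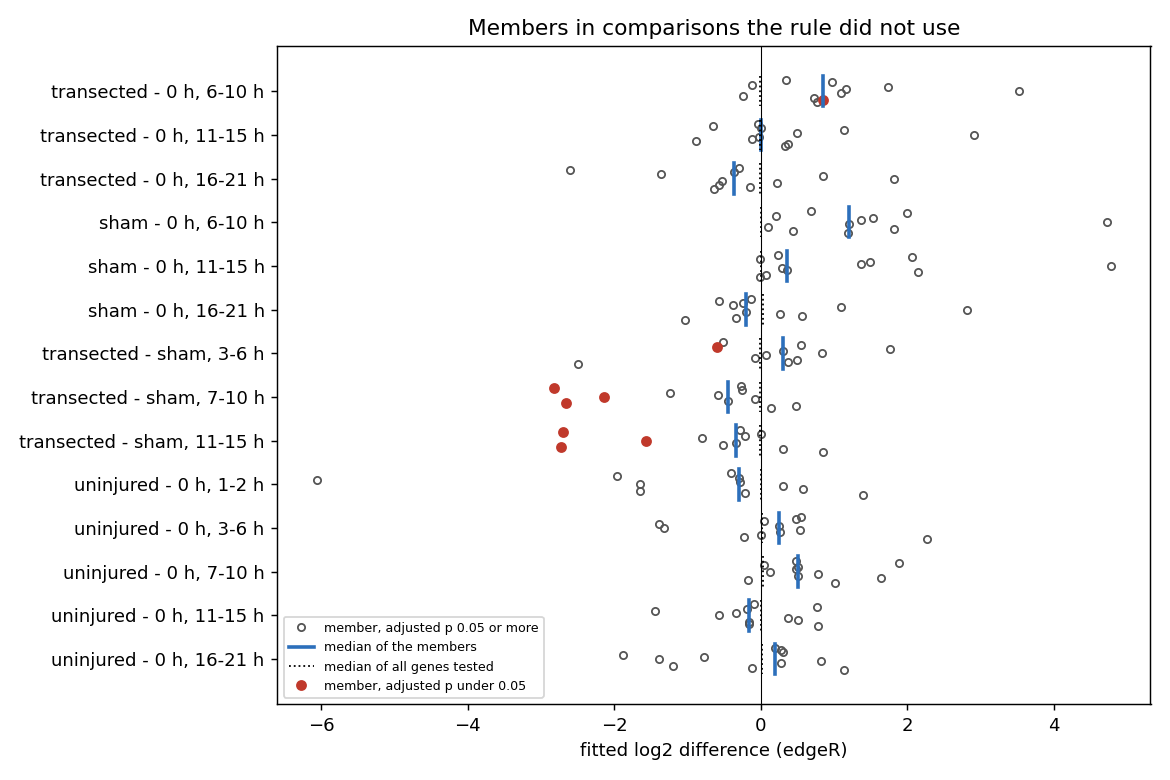
Fitted log2 difference (edgeR) of each member in the comparisons the rule did not use, with filled points at an adjusted p under 0.05, a line at the median of the members and a dotted line at the median of all genes tested. The filled points are J at 0.85 (transected minus 0 h, 6 to 10 h), C at -0.60 (transected minus sham, 3 to 6 h), and B, F and I between -2.82 and -1.56 at 7 to 10 and 11 to 15 h.

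Uninjured animals of S7 and S8 gave the course without surgery (edgeR, series as a block, against 1 library of 0 h in each series, whose spread is assumed to be that of the others). At 1 to 2 h, 0 members were called, among 0.0% of all genes lower and 0.0495% higher. The median was -0.30, with 8 members below 0, and 1 had an unadjusted p under 0.05 (D, which was listed at 0 in both uninjured libraries of 1 and 2 h). DESeq2 called 0 members in this window and in each of the 4 later ones. The medians of the later windows (3 to 6, 7 to 10, 11 to 15 and 16 to 21 h) were 0.25, 0.51, -0.15 and 0.19. Each of these windows had 0 members called by edgeR, against 0.00619%, 0.0495%, 0.517% and 1.32% of all genes called lower and 0.102%, 0.124%, 0.473% and 0.73% called higher. Among them, 1 member had an unadjusted p under 0.05, E at 16 to 21 h, lower. C differed by -0.30 (SE 0.28) and J by -0.21 (SE 0.34) at 1 to 2 h.

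The members did not vary as one set across libraries. B, D, E, F and I went together: over the 105 libraries of the time series the correlation of log2(CPM + 1) was 0.65 to 0.89 in their 10 pairs, and 0.66 to 0.82 after subtracting the mean of each series. The points share series, depth and hour, so this is a description. The grouping was made after the values were seen. Summed over the 5 genes, the level was 4.94 to 14.3 CPM (median 8.73) in transected and 3.72 to 14.0 CPM (median 6.02) in sham cords at 1 to 2 h, against 7.65 to 43.1 CPM (median 11.1) at 0 h in S1 to S3. It was 0.416 to 2.14 CPM at 0 h in S4 to S6 and 0.915 to 9.73 CPM (median 2.25) in uninjured cords. In S4 it was 0.994 to 17.9 CPM (median 3.13) in transected cords and 2.00 to 15.0 CPM (median 9.05) in sham cords.

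A further 198 of the 32323 other genes kept had a correlation of at least 0.7 with the mean of these 5, and 138 of at least 0.8. Of the 34 genes that met the sham criteria but were not members, 31 were among the 198. The 34 genes and B, D, E, F and I were chosen in the same sham and 0 h libraries, which also entered the correlation. The choice therefore favours an overlap, and nothing is read from it. These 198 genes took 0.519 to 2.23% of all counts in transected and 0.34 to 1.24% in sham cords at 1 to 2 h. At 0 h they took 4.91% in library 3 of S1, 0.587 to 1.10% in the other libraries of S1 to S3, and 0.0452 to 0.148% in S4 to S6. At 7 to 10 h they took 0.0987 to 0.413% (median 0.277%) in transected cords and 0.146 to 0.779% (median 0.406%) in sham cords. At 11 to 15 h the shares were 0.0511 to 0.294% (median 0.0829%) in transected and 0.0435 to 0.796% (median 0.202%) in sham cords. These genes were chosen for varying with B, D, E, F and I in the same libraries, so that their share moves with these members follows from the choice.

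A, C, G and J were less closely tied to each other. Their pairwise correlations were 0.28 to 0.79 over the 105 libraries and 0.16 to 0.66 after subtracting the mean of each series. Another 48 genes had a correlation of at least 0.7 with their mean, and 5 of at least 0.8. Their summed level was 6.77 to 32.8 CPM (median 12.4) in transected and 7.44 to 23.5 CPM (median 12.6) in sham cords at 1 to 2 h, against 17.2 to 43.7 CPM (median 24.3) at 0 h in S1 to S3. The 0 h libraries of S4 to S6 had 14.9 to 22.9 CPM and uninjured cords 12.4 to 31.9 CPM (median 20.3), so the ranges of the sum at 0 h overlapped. By gene, the 0 h mean of S1 to S3 was the higher one in each. It was 5.16 CPM against 2.62 CPM in S4 to S6 in A, and 10.0 against 9.33 CPM in C. In G it was 3.55 against 2.42 CPM, and in J 7.34 against 5.08 CPM. All 4 were among the 5 members that remained without library 3 of S1, together with K. In that library their sum was at its lowest for 0 h in S1 to S3, 17.2 CPM. The sum was at its highest, 43.7 CPM, in the single 0 h library of S3. As that library could not be left out, how far their difference in S3 depends on it was not tested. H, which was in neither sum, correlated with B, D, E, F and I by 0.32 to 0.58 and with A, C, G and J by -0.16 to -0.06. K correlated with the other 10 members by -0.15 to 0.08.

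**Figure D4:**
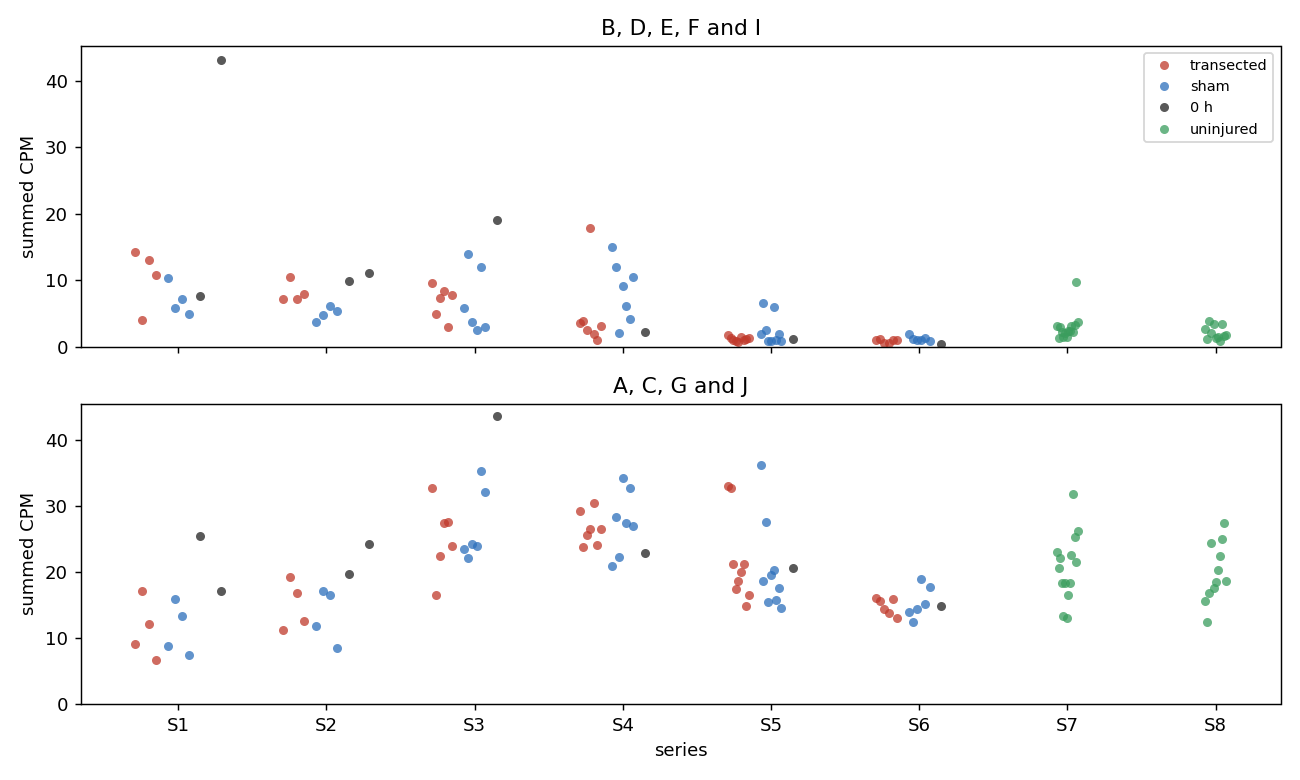
Summed CPM of B, D, E, F and I (upper panel) and of A, C, G and J (lower panel) in each library by series, for transected, sham, 0 h and uninjured animals. In the upper panel 0 h library 3 of S1 stands at 43.1 CPM, and the transected libraries of S5 and S6 lie between 0.495 and 1.75 CPM, whereas the lower panel has levels of the same order in all series.

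Torin1 inhibits mTOR kinase. With 1 library per group and day there is no replicate check or test. At 24, 48 and 96 h, 0 members differed by 1 or more on the log2(CPM + 1) scale between Torin1 and DMSO, among 10, 10 and 9 members with a count, while 1.97%, 0.519% and 0.236% of all genes did. Only 4 members, A, C, G and J, had at least 1 CPM in both libraries of each day. The others measured 0.33 CPM or less, where a difference of 1 on this scale cannot be reached. Among all genes with at least 1 CPM in both libraries, 2.64%, 0.61% and 0.25% passed, and 0 of these 4 members. The median differences of Torin1 from DMSO were -0.08, 0.03 and -0.05. C measured 5.76, 7.71 and 5.85 CPM with Torin1, against 6.64, 7.41 and 6.30 CPM with DMSO, and J measured 6.19, 5.53 and 4.13 CPM with Torin1, against 4.14, 6.37 and 4.55 CPM with DMSO. The largest difference was that of A at 24 h, -0.94, with 1.79 CPM in the Torin1 library and 4.35 CPM in the DMSO library. B, D, E, F and I summed to 0.145 to 0.724 CPM with Torin1 and 0.16 to 0.365 CPM with DMSO. The lowest library of the time series, 0 h of S6, had 0.416 CPM. According to the paper, the Torin1 experiment used more input RNA and was mapped with Bowtie2 in place of Bowtie. Levels of the experiments are therefore not strictly comparable.

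The mean of the members over the 8 libraries of 0 h was 1.06 to 9.77 CPM (median 3.06), beside a median of 2.88 CPM for all genes with a count. Per transcript length it was 0.425 to 16.3 TPM (median 2.12), beside 2.67 TPM. The rule had used 5 of these 8 libraries, which favours high values there. In the 0 h libraries of S4 to S6 the median member was at 0.636 CPM, and in uninjured cords at 1.19 CPM. The count behind a 0 h value of S1 to S3 was 8 to 248. D was at 0 in 35 of the 105 libraries, K in 23, I in 14, F in 13 and B in 9, and the other 6 were detected in all. Effective length, the part of a transcript from which a fragment can start, was 190 bases in K and 1006 to 8160 bases in the other 10 members, with a median of 2470 over the 11 and of 1640 over all genes. The share of values above 0 that were whole numbers exactly as deposited, with no tolerance, also differed. In E, I and K none was whole, and in G, H and J fewer than 2% were (0.952%, 1.90% and 0.952%), whereas among all genes the median was 46.7%. Fractional counts arise where reads fit several transcripts and are divided among them, so the level of each of these 6 genes depends on how reads were divided. In D and F, 95.7% and 92.4% of the values above 0 were whole, in C 73.3%, in A 56.2% and in B 26%.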

How the data were processed

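The authors mapped the time series reads to the *X. laevis* transcriptome 9.1 with Bowtie and RSEM, and deposited 1 table per library. An expected count in the deposited tables is RSEM's estimate of a gene's reads. The authors' TPM and FPKM columns are scaled to length and library, and TPM served as an alternative scale and for levels per length. FPKM served only to work out effective lengths, together with the counts. CPM was made from the unrounded counts. For tests, counts were rounded, and a gene was kept if some condition had at least 4 time points with a count of 5 or higher (32328 genes).

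Tests used edgeR 4.0.16 (TMM, quasi-likelihood F-test, Benjamini-Hochberg) in R 4.3.3, with DESeq2 1.42.0 as an alternative, and the procedure was run on simulated data in which 200 genes changed. The simulation gave all genes the same spread and changed only genes above a minimum mean level. It therefore does not show how well changes in the low members can be called. Transected and sham libraries of the same series and hour were paired, since sham samples came from the same batches. Deviations from the window means correlated by 0.419 on average over 36 pairs (over 0.1 in 31). No libraries had identical counts. Identifiers matched 0 of 44456 RefSeq genes, so lists of marker and pathway genes could not be used. By rule, the 2 members lowest in mean difference with at least 5 CPM at 0 h are printed by identifier, with up to 2 members called higher in sham than 0 h in S4 to S6, of which there were 0. Members and lists were chosen with earlier results of these data known. Alternatives were other size factors, no filter, DESeq2, a fold limit, no block, other pseudocounts, and leaving out series or libraries. Time series totals were 9.96 to 76.6 M. The number of counts limits precision in the low members.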

Additional observations from a re-analysis of the deposited data

Results flagged for a closer look

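In 4 of 27 groups of 4 to 10 libraries, 1 library lay far from the others by Dixon's criterion. The groups share libraries, and the rule had used the 0 h libraries of S1 to S3 and the libraries of 16 to 21 h. The usual rate of about 1 in 20 groups therefore cannot be set against this number, and nothing is read from it. Member B reached 4.46 as log2(CPM + 1) in 0 h library 3 of S1, while the other 4 libraries of 0 h in S1 to S3 lay between 1.67 and 2.21. Member I reached 3.41 in the same library. The mean log2(CPM + 1) of the 11 members reached 1.29 in 1 transected library of 16 to 21 h, where the group's lowest was 0.84 and median 1.02, and 1.83 in 1 uninjured library of 7 to 10 h, where the lowest was 1.43 and the median 1.48.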

How the results depend on the processing

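Of 100 alternatives of the counts of members called, 84 stayed within 1.5 times of the reported count and 16 did not. Most of the 84 were a reported 0 that stayed 0, also in comparisons where 0.0% of all genes were called. The number 84 therefore does not show that the calls made were stable. Members called in transected cords against 0 h at 6 to 10 h numbered 1 as reported, 0 with DESeq2 size factors, 2 with DESeq2, 0 without the filter, 2 without the series block, and 0 to 0 with a series left out. At 16 to 21 h the reported 0 became 1 with DESeq2 and 1 without the series block. Of transected against sham, the 3 called at 7 to 10 h became 1 with no replicate block and 0 to 3 with S4 or S5 left out, the 3 at 11 to 15 h became 0 to 3 with S4 or S5 and 2 to 4 with another series left out, and the 1 at 3 to 6 h became 2 with DESeq2, 0 with no replicate block, 0 to 0 with S3 or S4 and 0 to 1 with another series left out. Without the 12 h pair of S5, J was called at 11 to 15 h (0.48, edgeR adjusted p = 0.0304). With a pseudocount of 0.5 CPM, 1 member passed at 24 h in Torin1 against DMSO. The rule gave 46 genes with TPM, 1 with a pseudocount of 5 CPM, and 6 to 20 without 1 of the 0 h libraries of S1.

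Signs turned in small, uncalled differences of C and J. With a series left out, C ranged between -0.153 and 0.283 in sham at 11 to 15 h, between -0.224 and 0.057 in transected at 6 to 10 h, between -0.126 and 0.274 in transected at 11 to 15 h, and between -0.029 and 0.022 in transected against sham at 11 to 15 h. J ranged between -0.089 and 0.140 in sham at 11 to 15 h, between -0.555 and 0.116 in sham and -0.403 and 0.344 in transected at 16 to 21 h, from a low of -0.036 in transected against sham at 3 to 6 h, and between -0.520 and 0.240 in uninjured at 11 to 15 h. Without the later libraries of S5, J became 0.115 in sham and 0.351 in transected at 16 to 21 h. C in transected at 11 to 15 h became -0.009 with DESeq2 size factors, -0.008 with DESeq2 and -0.102 without the series block. The cause was not tested. Counts of 8 to 248 at 0 h, 1 library of 0 h per later series, and reads divided between similar transcripts limit each value.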
